A study of Mus musculus with 2 samples.

Results

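A set of 6 genes of the angiopoietin and Tie families was followed through the cells of Lewis lung carcinoma (LLC) tumors: the ligand genes Angpt1 and Angpt2, the receptor genes Tek and Tie1, and the angiopoietin-like genes Angptl2 and Angptl4. They were taken by name, with earlier results of these data known, and are 6 of the 32285 genes listed, of which 23582 had at least 1 transcript counted. Other genes of the same families (Angpt4, Angptl1, Angptl6, Angptl7 and Angptl8) are described below.

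Angiopoietins are secreted ligands of TIE2, the receptor tyrosine kinase that Tek encodes on endothelial cells (ECs). Angiopoietin-1, made mainly by mural and mesenchymal cells around the vessel, activates TIE2 and keeps vessels quiescent, whereas angiopoietin-2 is stored and released by ECs themselves, acts in a context-dependent way and loosens contacts between ECs and pericytes in remodelling vessels. TIE1 binds no angiopoietin with high affinity and modulates TIE2 signalling, and angiopoietin-like proteins share the ligand fold but do not bind TIE2. Of these, ANGPTL4 inhibits lipoprotein lipase and is induced by fasting, PPAR ligands and hypoxia, and ANGPTL2 is a secreted factor of stromal and tumor cells linked to inflammation.

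The data were 2 single-cell RNA libraries of LLC tumors grown under the skin of C57BL/6 mice. The sGC Ctr library came from Gucy1b1 flox/flox mice, and the sGC ∆PC library from Cspg4-CreERT2::Gucy1b1 flox/flox mice, in which a tamoxifen-inducible Cre driven from Cspg4, a pericyte gene that other cells can also use, removes the β1 subunit of soluble guanylate cyclase (sGC). Both genotypes received 5 doses of tamoxifen from 4 weeks of age and tumor cells at 8 weeks of age, and tumors were taken 2 weeks later. Each library pooled the cells of 3 tumors, so there was 1 library for each genotype and no replicate. Genotype and library therefore cannot be told apart, no test between them was possible, and every interval below is a 95% interval that covers counting error only.

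The sGC Ctr library held 15007 cell barcodes and the sGC ∆PC library 25631, of which 12220 and 22498 passed the cell filter, with a median of 35776.5 and 8685 unique molecular identifiers (UMIs, 1 for each captured mRNA molecule) per cell. Cells were sorted into 9 classes by the summed level of class markers, none of which is among the 6 genes, and 83.2% and 72.8% of cells passed a single class gate. The gates gave 67 and 72 ECs, 40 and 47 pericytes, 125 and 372 fibroblasts, 2178 and 3072 macrophages, and 7385 and 12448 cancer cells in sGC Ctr and sGC ∆PC. They also gave 41 and 40 dendritic cells, 241 and 254 granulocytes, 76 and 72 T cells, and 12 and 9 natural killer cells. Within 1.5-fold of the EC gate, 1 and 10 cells lay just above it and 6 and 27 just below. The median UMI count of ECs was 24275 and 8756, so shares of cells were also given after thinning to 2000 UMIs, which left out shallower cells. These were 3 and 10 ECs, 2 and 18 pericytes, 4 and 117 fibroblasts, 14 and 853 macrophages, and 22 and 137 cancer cells, more in sGC ∆PC in each of these classes. Cancer-cell markers summed to 7.65% and 6.82% of their cancer-cell level in ECs, 6.27% and 13.9% in pericytes, 5.86% and 18.5% in fibroblasts, and 8.03% and 11.5% in macrophages, and their part in the values below was not tested. Cells that passed several gates were left out, which limits the markers of other classes within a class by selection, but not the 6 genes. The libraries shared 98 barcodes among the cells kept, of which 0 and 1 were in ECs, none in pericytes, and 1 and 3 in fibroblasts. The targeted gene Gucy1b1 was counted 59 times in sGC Ctr pericytes and 13 times in sGC ∆PC pericytes, or 128 and 36.3 CPM (UMIs of the gene for every 1000000 UMIs of the class, the unit of every level below), a log2 ratio of -1.82 (-2.81 to -0.93).

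On the mouse GRCm38 (mm10) assembly, Angpt1 (ENSMUSG00000022309) lies on chromosome 15 at 42424723-42676977, Angpt2 (ENSMUSG00000031465) on chromosome 8 at 18690263-18741562 and Angptl4 (ENSMUSG00000002289) on chromosome 17 at 33773750-33781830, all on the minus strand. Angptl2 (ENSMUSG00000004105) is on the plus strand of chromosome 2 at 33216069-33247717. Angpt2 lies within the span of Mcph1 and Angptl2 within that of Ralgps1, both transcribed from the opposite strand, and no member overlapped a gene on its own strand. Both receptor genes are on chromosome 4, Tek (ENSMUSG00000006386) on the plus strand at 94739289-94874976 and Tie1 (ENSMUSG00000033191) on the minus strand at 118471191-118490061. The RefSeq promoter windows of the receptor genes (GRCm38.p6, 250 bases before to 50 after the start) are shown because these genes had the most similar profiles of any pair among the 6. Capitals mark GGAA, the core of the motif bound by ETS factors, and TTCC, the same letters on the other strand.
Tek: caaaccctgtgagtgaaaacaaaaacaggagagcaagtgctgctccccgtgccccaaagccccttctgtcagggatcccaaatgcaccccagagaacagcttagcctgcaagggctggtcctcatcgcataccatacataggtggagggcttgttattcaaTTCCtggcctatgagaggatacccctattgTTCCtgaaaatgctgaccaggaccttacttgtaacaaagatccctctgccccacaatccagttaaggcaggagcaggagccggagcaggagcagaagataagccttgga
Tie1: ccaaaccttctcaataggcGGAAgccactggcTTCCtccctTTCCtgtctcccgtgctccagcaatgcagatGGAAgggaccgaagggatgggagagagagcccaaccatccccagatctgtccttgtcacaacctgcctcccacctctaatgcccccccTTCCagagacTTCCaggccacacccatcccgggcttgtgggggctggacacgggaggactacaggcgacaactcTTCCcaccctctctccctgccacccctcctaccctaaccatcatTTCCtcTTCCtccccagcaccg
The first is chr4:94739039-94739338 on the plus strand and the second chr4:118489800-118490099 on the minus strand. The Tie1 window held 9 matches to GGAA on either strand, a number reached by 1.59% of the 32544 promoter windows compared, and the Tek window held 2, with a median of 3 over all windows and at least 1 in 96.0%. The Tek window also held 2 matches to GATA, which 57.7% of windows held at least once, and the Tie1 window held 0. A window of Angptl2 held 2 GGAA matches, and Angpt1, Angpt2 and Angptl4 were not in the promoter table.

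**Figure D1:**
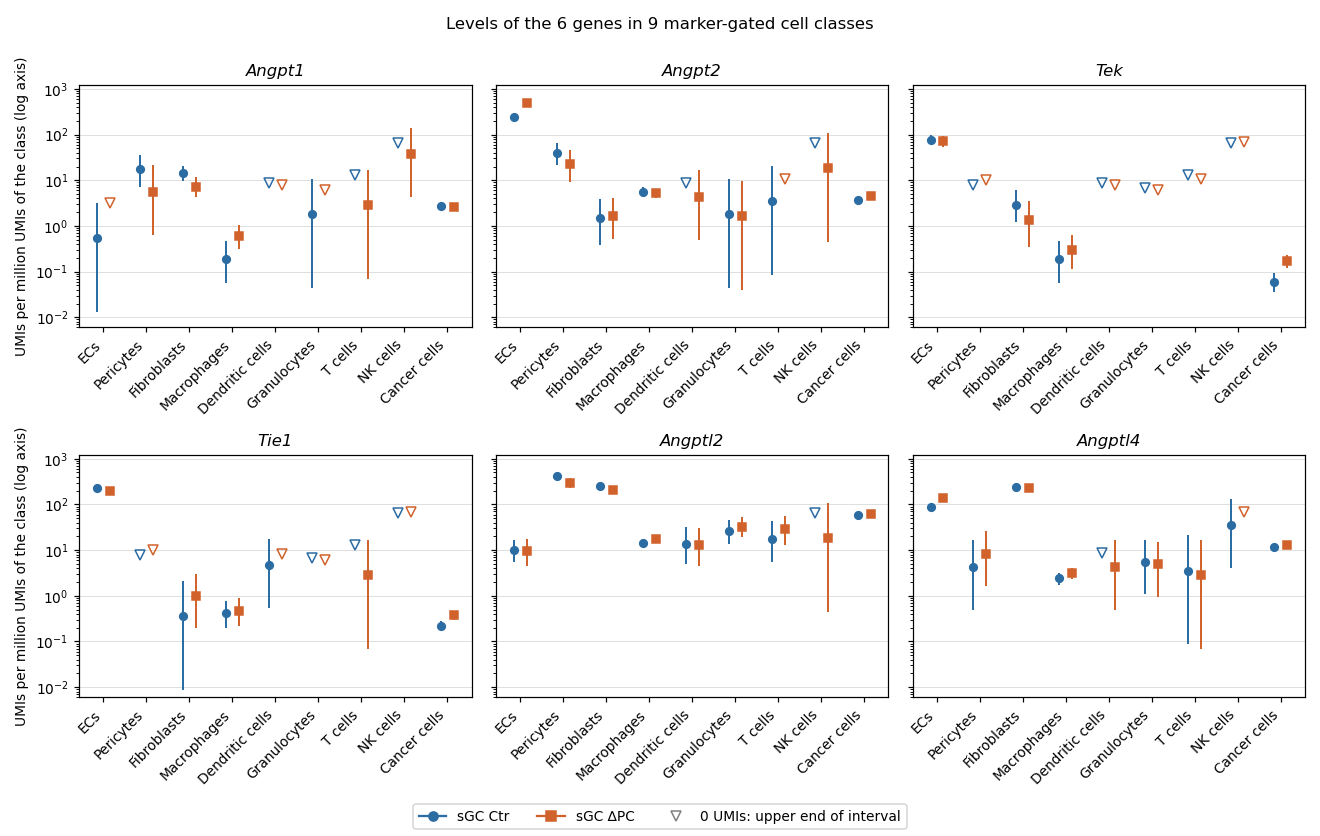
Level of each of the 6 genes (CPM, log axis) in 9 marker-gated cell classes, with circles for sGC Ctr and squares for sGC ∆PC (1 library each), vertical lines for 95% Poisson intervals, and open triangles at the upper end of the interval where no UMI was counted. Tek and Tie1 stood at 77.2 and 230 in sGC Ctr ECs and at 2.93 and 4.63 or less in every other class, whereas Angptl2 was highest in pericytes (411 and 293) and Angptl4 in fibroblasts (244 and 229).

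Angpt1, the TIE2 agonist, was a low-level transcript of fibroblasts and pericytes, with a single UMI counted in ECs. Fibroblasts held 39 UMIs in the control library and 22 in the other, which gave 14.3 CPM (10.2 to 19.5) and 7.28 CPM (4.56 to 11.0). Pericytes held 8 and 2 UMIs, or 17.3 CPM (7.47 to 34.1) and 5.58 CPM (0.676 to 20.2). The intervals of pericytes and fibroblasts overlapped in both libraries, so the 2 stromal classes could not be ordered. Fibroblasts stood 5.26-fold (3.72 to 7.24) above cancer cells in sGC Ctr and 2.74-fold (1.71 to 4.18) in sGC ∆PC. ECs held 1 UMI among 67 cells and 0 among 72, which allows up to 2.59 CPM in sGC ∆PC ECs (a floor of 3 counts). In sGC ∆PC natural killer cells 2 UMIs gave a level of 37.5 CPM with an interval of 4.54 to 135, too few to place that class.

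Although its level was low, Angpt1 drew most of its UMIs from the cancer cells, which held most UMIs of all genes. These were 420601462 of the 476464534 UMIs in kept cells of sGC Ctr and 352270502 of 412064152 in sGC ∆PC. Cancer cells held 1141 and 934 UMIs, or 89.4% and 89.6% of all Angpt1 UMIs in kept cells, at 2.71 CPM (2.56 to 2.87) and 2.65 CPM (2.48 to 2.83). Macrophages held 5 and 14 UMIs, 0.187 and 0.591 CPM, which was 6.91% and 22.3% of the cancer-cell level, while the cancer-cell markers stood in macrophages at 6.45% to 10.8% and 8.14% to 15.9% of theirs. Thus the sGC Ctr macrophage value lay within the range of these markers and the sGC ∆PC value above it. The macrophage intervals, 0.0609 to 0.437 CPM and 0.323 to 0.992 CPM, overlapped. The log2 ratio of sGC ∆PC over sGC Ctr in macrophages was 1.66 (0.10 to 3.48), but it rested on only 5 and 14 UMIs. Counting error was not carried into the comparison with the markers, so the difference between the libraries in it is uncertain. The gates also limited these markers in macrophages by selection, but not Angpt1.

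Between the libraries, Angpt1 in fibroblasts was lower in sGC ∆PC by 0.97 on the log2 scale (log2 ratio -0.97, -1.80 to -0.18), just inside a 2-fold difference, and in pericytes the log2 ratio of -1.63 had an interval of -4.91 to 0.69. Cancer cells did not share the difference, with a log2 ratio of -0.03 (-0.16 to 0.09). In macrophages the few Angpt1 UMIs gave a higher level in sGC ∆PC, as described above. Of the fibroblasts, 25 of 125 (20%) and 16 of 372 (4.30%) had an Angpt1 UMI, but after thinning these were 2 of 121 (1.65%) and 3 of 255 (1.18%), a level of single UMIs at which no difference was detectable. Cancer-cell markers in fibroblasts differed between the libraries, as given above. Fibroblast markers themselves had a median log2 ratio of -0.38 in fibroblasts, beside -0.05 over all genes measured there. With 1 library each, the fibroblast difference is a difference between these libraries.

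**Figure D2:**
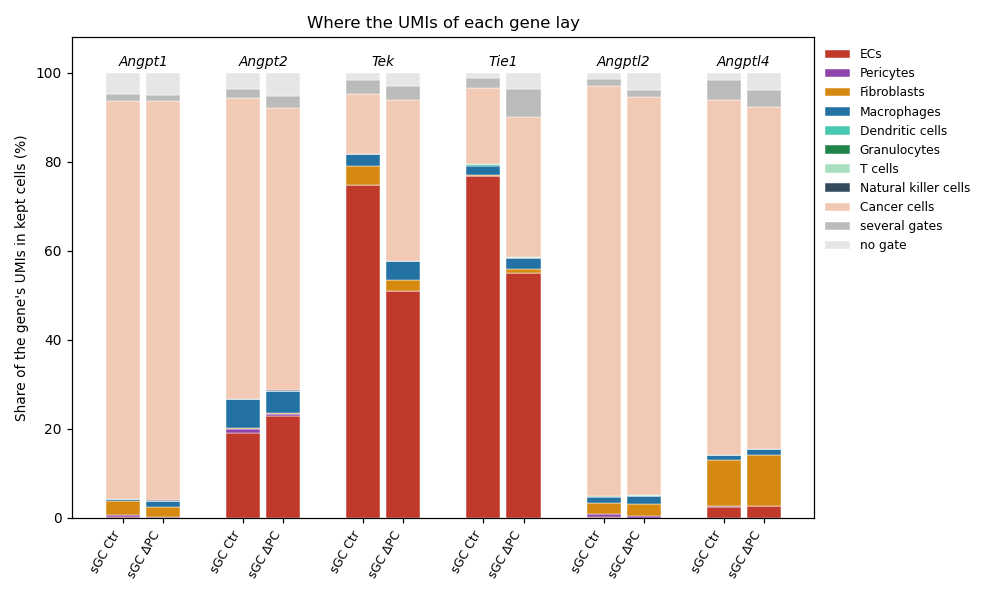
Share of each gene's UMIs (percent of its UMIs in kept cells) that lay in each cell class, in cells passing several gates and in cells passing no gate, with a bar for each library. ECs held 74.9% of Tek and 76.8% of Tie1 UMIs in sGC Ctr but 19.1% of those of Angpt2, of which cancer cells held 67.6%.

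Angpt2, the ligand that ECs make themselves, was an EC transcript with a weaker signal in pericytes. The 67 ECs of sGC Ctr held 443 UMIs, a level of 244 CPM (222 to 268), and the 72 ECs of sGC ∆PC held 566, a level of 489 CPM (450 to 531). Pericytes held 18 and 8 UMIs, or 39.0 CPM (23.1 to 61.6) and 22.3 CPM (9.64 to 44.0). In sGC Ctr the classes fell in the order ECs, pericytes, macrophages (151 UMIs, 5.66 CPM) and cancer cells (1567 UMIs, 3.73 CPM) with no overlap between neighbours, ECs being 6.27-fold (3.92 to 10.7) above pericytes. In sGC ∆PC the EC interval again lay apart, and that of pericytes lay above those of macrophages and cancer cells. Macrophages (123 UMIs, 5.19 CPM, 4.32 to 6.19) and cancer cells (1565 UMIs, 4.44 CPM, 4.23 to 4.67) overlapped each other. Natural killer cells, with 1 UMI, had an interval of 0.474 to 104, too wide to place that class.

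Angpt2 outside ECs was set against EC markers in the same cells. In pericytes it stood at 16.0% and 4.56% of its EC level, where the 9 EC markers ranged from 0% to 45.3% and from 0% to 30.0% with medians of 0.93% and 1.33%. In macrophages it stood at 2.32% and 1.06% of its EC level, against marker ranges of 0.0451% to 1.66% and 0.0759% to 2.05% with medians of 0.112% and 0.143%. In cancer cells it stood at 1.53% and 0.91%, inside the marker ranges of 0.0315% to 2.70% and 0.113% to 3.05%, whose medians were 0.09% and 0.202%. Only the sGC Ctr macrophage value thus exceeded every EC marker, and the other values lay within the marker ranges but above the marker medians. The gates limited the EC markers in the other classes by selection, but not Angpt2, and the part of EC transcripts in these values was not tested.

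The Angpt2 level in ECs differed 2.00-fold between the libraries when UMIs were summed (log2 ratio 1.00, 0.82 to 1.19), but the difference was smaller when each cell counted equally or when cells were thinned. Of all 6421 genes measured in ECs, 0.919% were past 2-fold higher and 0.794% past 2-fold lower in sGC ∆PC, and of the 4 members measured there 1, Angpt2, lay just past 2-fold higher and 0 past 2-fold lower, the median log2 ratio being 0.29 over the members and 0.02 over all genes. The cells with a UMI were 47 of 67 (70.1%) and 41 of 72 (56.9%), and after thinning 20 of 64 (31.2%) and 24 of 62 (38.7%), with intervals of 20.2% to 44.1% and 26.6% to 51.9% that overlapped. For comparison, 1.20% and 0.86% of thinned macrophages had an Angpt2 UMI. The median EC had 1.44 and 1.11 Angpt2 UMIs per 10000 UMIs, the upper quartile was 3.20 and 4.82, and the highest cell had 15.5 and 25.8. So the middle of the distribution was no higher in sGC ∆PC, and its upper part was.

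The uneven spread of Angpt2 over ECs was measured directly. Its UMIs reached 50% of the class total in 9 cells of sGC Ctr and in 5 cells of sGC ∆PC, and the 7 and 8 ECs with the most UMIs (10% of the class, rounded up) held 42.2% and 68.2%. When ECs were split at the median of their depth, the deeper cells of sGC Ctr were at 232 CPM and the shallower at 284 CPM (log2 ratio -0.29, -0.60 to 0.02), whereas in sGC ∆PC the deeper cells were at 520 CPM and the shallower at 234 CPM (log2 ratio 1.15, 0.62 to 1.75). The deeper ECs held 537 of the 566 Angpt2 UMIs of sGC ∆PC and 322 of the 443 of sGC Ctr. Thinning ECs to 2000 UMIs (64 and 62 cells) left 32 and 35 Angpt2 UMIs and a log2 ratio of 0.18 (-0.56 to 0.91), the mean over cells gave 0.36, and clusters named from the same markers, whose EC cluster held 138 and 341 cells including most pericytes and 12 and 149 cells of the cancer-cell gate, gave -0.01 (-0.17 to 0.16). Without the cell with the most Angpt2 UMIs in each library (44 and 77 UMIs) the log2 ratio was 0.95.

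**Figure D3:**
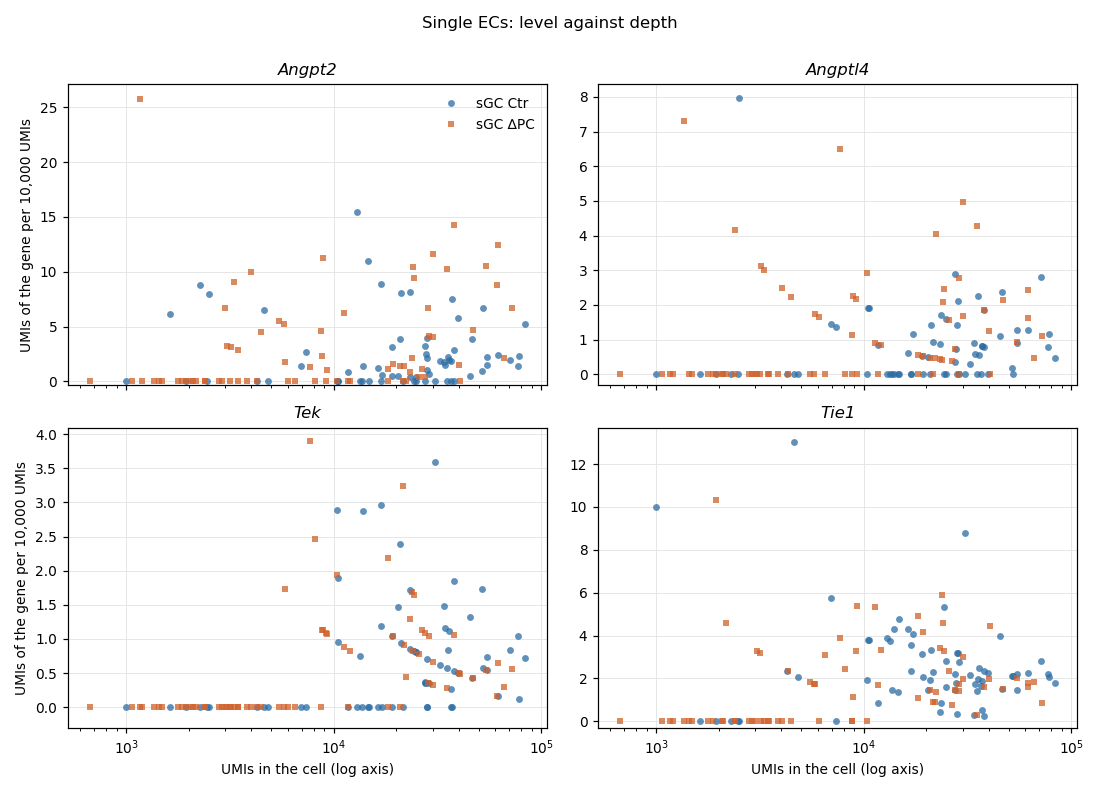
Each point is an EC of sGC Ctr (circles, 67 cells) or sGC ∆PC (squares, 72 cells), placed by its UMI count (log axis) and by the UMIs of the gene per 10000 UMIs of the cell. Angpt2 was spread from 0 to 15.5 and 25.8, and cells of sGC ∆PC extended to lower depth, where a single UMI gives a high value.

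Angpt2 varied within ECs together with tip-cell genes, the set that marks the leading cells of a vessel sprout (Esm1, Apln, Cxcr4, Kcne3, Nid2, Pgf, Unc5b and Pdgfb). In sGC Ctr the ECs below the median of these genes held 113 Angpt2 UMIs (143 CPM) and those above it 330 (322 CPM), which gave a log2 ratio of 1.17 (0.85 to 1.49). In sGC ∆PC the corresponding values were 50 (132 CPM) and 516 (663 CPM), with a log2 ratio of 2.33 (1.91 to 2.77). The direction was the same in both libraries and after thinning, with log2 ratios of 1.14 (-0.00 to 2.38) and 1.32 (0.27 to 2.44). ECs above the median were also deeper, with median UMI counts of 28288 against 19780 and of 14759 against 5902.5. The thinned levels were 156 and 176 CPM below the median and 344 and 440 CPM above it, the latter from 22 UMIs in each library. Thinned cells were split anew by their thinned counts, into 32 and 32 cells in sGC Ctr and 37 and 25 in sGC ∆PC. These are not the groups behind the 322 and 663 CPM, so whether those levels lay closer together at equal depth was not tested.

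The tip-cell genes themselves were compared between the libraries in ECs. All 8 were measured, 2 were past 2-fold higher in sGC ∆PC and 0 past 2-fold lower, with a median log2 ratio of 0.37 beside 0.02 over all genes. Of all genes measured in ECs, 0.919% were past 2-fold higher and 0.794% past 2-fold lower. Those 2 were Esm1, a proteoglycan of tip cells, at 87.1 and 245 CPM (log2 ratio 1.49, and 1.75 after thinning), and Cxcr4, a chemokine receptor, at 55.1 and 124 CPM (1.17, and 2.37 after thinning). Apln, a peptide ligand with the highest level of the set, was at 433 and 679 CPM (log2 ratio 0.65), and 0.09 after thinning. The thinned values rested on 8 and 26 UMIs for Esm1 (0.56 to 3.10), 4 and 20 for Cxcr4 (0.79 to 4.38) and 58 and 60 for Apln (-0.45 to 0.64). Pdgfb (log2 ratio 0.52) and Pgf (0.22) were also higher in sGC ∆PC, with 0.19 and -0.26 after thinning. Kcne3 (-0.18), Nid2 (-0.16) and Unc5b (-0.40, -0.78 to -0.04) were lower, with -0.32, 0.30 and 0.25 after thinning. The set thus did not move as a whole, and differences between these genes were not tested.

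Angpt2 in ECs was also split by hypoxia genes. From below to above their median Angpt2 went from 126 to 335 CPM in sGC Ctr (log2 ratio 1.41) and from 258 to 680 CPM in sGC ∆PC (log2 ratio 1.40). After thinning the log2 ratios were 1.03 (-0.06 to 2.13) and 0.21 (-0.91 to 1.26), both with intervals that include 0. Thinned cells were again split anew, into 43 and 21 cells below and above in sGC Ctr and 41 and 21 in sGC ∆PC. A weaker thinned split can thus come from the new grouping as well as from depth, which was not tested. None of the 9 hypoxia genes measured in ECs was past 2-fold in either direction between the libraries.

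**Figure D4:**
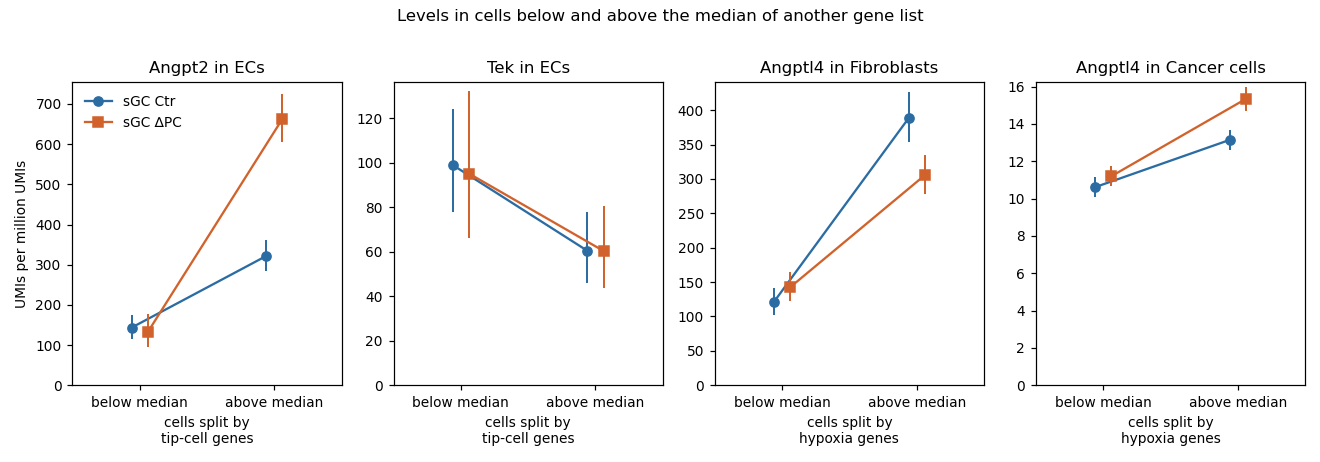
Levels (CPM) of Angpt2 and Tek in ECs below and above the median of the tip-cell genes, and of Angptl4 in fibroblasts and cancer cells below and above the median of the hypoxia genes, with circles for sGC Ctr, squares for sGC ∆PC and vertical lines for 95% Poisson intervals. Angpt2 went from 143 to 322 and from 132 to 663 across the split, while Tek went from 99.0 to 60.4 and from 95.2 to 60.4.

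Tek, the gene of the TIE2 receptor, was counted in ECs at a level that did not differ detectably between the libraries in gated cells. ECs held 140 and 83 Tek UMIs, for levels of 77.2 CPM (64.9 to 91.1) and 71.7 CPM (57.1 to 88.9). Their log2 ratio was -0.11 (-0.51 to 0.30), whereas in the broader EC cluster described above, which also held pericytes and cells of the cancer-cell gate, Tek was at 43.6 and 23.0 CPM, with a log2 ratio of -0.92 (-1.30 to -0.55). Cells with a UMI were 43 of 67 (64.2%) and 36 of 72 (50.0%), and after thinning 5 of 64 (7.81%) and 6 of 62 (9.68%). Tek was spread more evenly than Angpt2, with 11 cells holding 50% of its UMIs in each library and the 7 and 8 ECs with the most holding 37.9% and 41.0%.

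Tek was not counted in 5 of the 9 classes of either library. Pericytes held 0 UMIs in 40 and 47 cells, which allows shares of cells with a UMI of up to 7.50% and 6.38% and levels of up to 6.49 and 8.37 CPM by a floor of 3 counts, or 8.81%, 7.55%, 7.98 CPM and 10.3 CPM by the exact 95% limits. These bounds concern cells with a counted UMI, at the depth of these cells. Dendritic cells, granulocytes, T cells and natural killer cells also held 0 UMIs in both libraries. Fibroblasts held 8 and 4 UMIs (2.93 and 1.32 CPM), 4 of the 8 in a single cell. Macrophages, among which TIE2-expressing cells are known, held 5 UMIs in 2178 cells and 7 in 3072, or 0.243% and 0.412% of the EC level, where the EC markers stood at 0.0451% to 1.66% and 0.0759% to 2.05% of theirs. The macrophage values thus lay inside the range of EC markers in the same cells and above the marker medians of 0.112% and 0.143%, and the part of EC transcripts in them was not tested. Among macrophages below and above the median of resident-type genes (Mrc1, Lyve1, Folr2, Cd163, Nrp1, Stab1 and Timd4) there were 3 and 2 Tek UMIs in sGC Ctr and 3 and 4 in sGC ∆PC, which gives no order.

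Cancer cells held 25 and 59 Tek UMIs, at levels of 0.0594 and 0.167 CPM, whose log2 ratio was 1.49 (0.80 to 2.23). These levels were 0.077% and 0.233% of the EC level, beside medians of 0.09% and 0.202% for the 9 EC markers in the same cells. Past 2-fold higher in sGC ∆PC were 3.77% of the 15391 genes measured in cancer cells and 0.143% were past 2-fold lower. Of the 6 members measured there, 1 (Tek) was past 2-fold higher and 0 past 2-fold lower, with a median log2 ratio of 0.20 beside 0.01 over all genes, and of the 9 EC markers 4 were past 2-fold higher, with a median log2 ratio of 0.94, while their sum went from 46.3 to 52.5 CPM (0.18). The part of EC transcripts in the Tek value was not tested.

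Tie1, the gene of the partner receptor of TIE2, followed Tek in where it was found. ECs held 418 and 233 UMIs, for levels of 230 CPM (209 to 254) and 201 CPM (176 to 229). Their log2 ratio was -0.19 (-0.43 to 0.04), and in the broader EC cluster, at 130 and 67.0 CPM, it was -0.96 (-1.17 to -0.74). It was found in 61 of 67 ECs (91.0%) and in 45 of 72 (62.5%), and after thinning in 26 of 64 (40.6%) and 24 of 62 (38.7%). At equal depth the shares were therefore indistinguishable. Pericytes held 0 UMIs in both libraries, as did granulocytes and natural killer cells, macrophages held 11 and 11 (0.179% and 0.231% of the EC level), and fibroblasts held 1 and 3. A single dendritic cell of sGC Ctr held 2. Cancer cells held 94 and 133 UMIs, 0.097% and 0.187% of the EC level, a log2 ratio of 0.76 (0.36 to 1.15). The macrophage, fibroblast and cancer-cell values lay within the ranges of EC markers in the same cells.

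Most ECs with Tek also had Tie1. Both were counted in 43 ECs of sGC Ctr and 34 of sGC ∆PC, Tek alone in 0 and 2, Tie1 alone in 18 and 11, and neither in 6 and 25. Angpt2 and Tek were counted together in 31 and 28 ECs, Angpt2 without Tek in 16 and 13, and Tek without Angpt2 in 12 and 8. Ligand and receptor transcripts were thus found in the same cells, at depths that leave many zeros to sampling.

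The receptors did not follow Angpt2 across the tip-cell split. Tek went from 99.0 CPM below the median to 60.4 CPM above it in sGC Ctr (log2 ratio -0.71, -1.22 to -0.21) and from 95.2 to 60.4 CPM in sGC ∆PC (-0.66, -1.31 to 0.01), and Tie1 had log2 ratios of -0.20 and -0.19. After thinning, Tek rested on 5 and 6 UMIs and its log2 ratios were -0.58 (-4.17 to 2.54) and 1.57 (-1.24 to 5.03), so the direction was not kept in sGC ∆PC and could not be checked at this depth.

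Across the 18 points of 9 classes in 2 libraries, Tek and Tie1 had a Pearson correlation of 0.93 on the scale of log2(CPM + 1), Angpt2 and Tek of 0.75, Angpt2 and Tie1 of 0.68, and Angpt1 and Angptl2 of 0.67. These points share their libraries and rest mostly on which class is high, so the values are descriptions. Of 14124 genes compared, those with profiles most like Tek were Myzap, Clec14a and Unc45b (0.99 each), and those most like Tie1 were Tspan7 (0.97), Grrp1 (0.97) and the EC cadherin gene Cdh5 (0.96), which was an EC marker of the gate. Most like Angpt2 were 4931406P16Rik (0.92), Emcn (0.90), another EC marker of the gate, and Chst7 (0.89). For Angpt1 they were Ggt7 (0.92), Fgf1 (0.91) and Tead3 (0.88), for Angptl2 Sdc2 (0.96), Efemp2 (0.94) and Kank2 (0.92), and for Angptl4 Pcdhga9, Slco2a1 and Dnm3 (0.88, 0.87 and 0.86).

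Angptl2 was the member of the mural and stromal cells. Pericytes held 190 and 105 UMIs, or 411 CPM (355 to 474) and 293 CPM (240 to 355), and fibroblasts held 694 and 635, or 254 CPM (236 to 274) and 210 CPM (194 to 227). Pericytes stood 1.62-fold (1.37 to 1.90) above fibroblasts in sGC Ctr and 1.39-fold (1.12 to 1.72) in sGC ∆PC. Fibroblasts in turn stood 4.26-fold (3.95 to 4.60) and 3.44-fold (3.17 to 3.72) above cancer cells, which were at 59.6 and 61.1 CPM. The order from pericytes through fibroblasts and cancer cells to granulocytes was thus the same in both libraries, with no overlap of neighbouring intervals. A single pericyte of sGC ∆PC held 23 of the 105 UMIs, and the intervals do not cover such spread between cells. Thinned shares of pericytes and fibroblasts overlapped, with intervals of 28.6% to 61.7% and 26.3% to 43.9% in sGC Ctr. In sGC ∆PC they were 23.5% to 61.1% and 25.4% to 37.0%.

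Cancer cells, which held most UMIs of all genes, nevertheless held 92.1% and 89.5% of Angptl2 UMIs (25081 and 21533), and Angptl2 transcripts reached the counts of every large class. ECs held 18 and 11 UMIs (9.92 and 9.51 CPM), or 16.6% and 15.6% of the cancer-cell level, macrophages 389 and 414 (14.6 and 17.5 CPM), or 24.5% and 28.6%, and granulocytes 14 and 20 (25.6 and 32.6 CPM), or 43.0% and 53.4%. The 4 cancer-cell markers stood at 6.01% to 9.83% and 4.47% to 9.79% of their level in ECs, at 6.45% to 10.8% and 8.14% to 15.9% in macrophages, and at 14.9% to 30.7% and 13.5% to 34.5% in granulocytes. Angptl2 in these classes was therefore above every cancer-cell marker, with counting intervals for ECs and granulocytes that are wide. Cells that also passed the cancer-cell gate had been left out, which limits these markers by selection but not Angptl2. The comparison thus cannot separate a class's own transcripts from those of cancer cells, and the part of the latter was not tested. After thinning, an Angptl2 UMI was found in 44.7% and 41.4% of pericytes, 34.7% and 31.0% of fibroblasts, 10.3% and 10.7% of cancer cells, and 3.00% and 3.74% of macrophages.

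Between the libraries Angptl2 was lower in sGC ∆PC pericytes by 0.49 on the log2 scale (log2 ratio -0.49, -0.85 to -0.14), which thinning reduced to -0.01 (-0.82 to 0.78). Cells with a UMI were 35 of 40 pericytes (87.5%) and 26 of 47 (55.3%), and the thinned shares above overlapped in their intervals. Pericyte markers themselves had a median log2 ratio of -0.29 in pericytes. Of 2462 genes measured in pericytes, 1.22% were past 2-fold higher and 1.42% past 2-fold lower, and Angptl2, the only member measured there, was in neither group. In fibroblasts the log2 ratio was -0.27 (-0.43 to -0.12), in macrophages 0.26 (0.06 to 0.46) and in cancer cells 0.04 (0.01 to 0.06). The intervals exclude 0 for counting error, and all 4 differences were under 2-fold. Fibroblast markers themselves had a median log2 ratio of -0.38 in fibroblasts, beside -0.05 over all genes measured there.

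**Figure D5:**
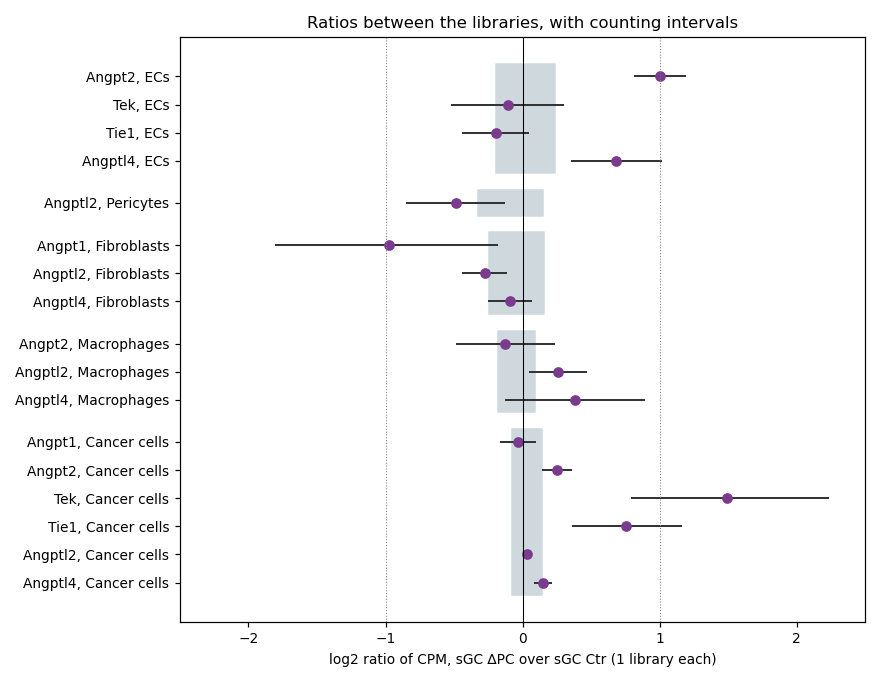
Log2 ratio of the level in sGC ∆PC over sGC Ctr (1 library each) for each member with at least 50 UMIs in the class, with lines for 95% counting intervals, grey bands for the middle 50% of all genes in that class, and dotted lines at 2-fold. Angpt2 in ECs (1.00) and Tek in cancer cells (1.49) reached the dotted line, and Angpt1 in fibroblasts (-0.97) came close to it.

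Angptl4, the inhibitor of lipoprotein lipase, was highest in fibroblasts and next highest in ECs. Fibroblasts held 666 and 692 UMIs, or 244 CPM (226 to 263) and 229 CPM (212 to 247), and ECs held 158 and 162, or 87.1 CPM (74.0 to 101.8) and 140 CPM (119 to 163). Fibroblasts stood 2.80-fold (2.35 to 3.35) above ECs in sGC Ctr and 1.63-fold (1.38 to 1.95) in sGC ∆PC, and ECs stood 7.29-fold (6.18 to 8.54) and 10.6-fold (8.98 to 12.4) above cancer cells, which were at 11.95 and 13.2 CPM. Pericytes, which shared Angptl2 with fibroblasts, held only 2 and 3 Angptl4 UMIs. Macrophages held 64 and 74 UMIs (2.40 and 3.12 CPM), or 20.1% and 23.6% of the cancer-cell level, above the cancer-cell markers of 6.45% to 10.8% and 8.14% to 15.9% in the same cells. The gates limited these markers by selection, but not Angptl4, and the part of cancer-cell transcripts was not tested.

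Within fibroblasts Angptl4 was concentrated. The highest cell held 91 and 75 UMIs, 10 and 14 cells held 50% of the UMIs, and 82 of 125 (65.6%) and 151 of 372 (40.6%) had any, or 20.7% and 24.7% after thinning. The level followed hypoxia genes, going from 121 to 388 CPM across their median in sGC Ctr (log2 ratio 1.68, 1.43 to 1.93) and from 142 to 305 CPM in sGC ∆PC (1.10, 0.86 to 1.34), and 2.23 (1.22 to 3.38) and 0.98 (0.36 to 1.63) after thinning. The direction was thus the same in both libraries at equal depth. Cancer cells had a smaller split, from 10.6 to 13.1 CPM (log2 ratio 0.31) and from 11.2 to 15.3 CPM (0.45), which after thinning was 0.06 (-0.44 to 0.54) and 0.44 (0.13 to 0.75). The new groups of thinned cancer cells were uneven, with 5035 and 2328 cells below and above in sGC Ctr and 7407 and 4904 in sGC ∆PC. In ECs the log2 ratios of Angptl4 across the hypoxia split were 0.06 (-0.42 to 0.53) and 0.80 (0.31 to 1.31). After thinning they were -0.29 (-3.68 to 2.32) and -1.62 (-4.82 to 0.55), so the direction was not kept. In macrophages they were -0.71 (-1.52 to 0.07) and 0.32 (-0.38 to 1.02), and 0.57 and 0.62 after thinning.

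Angptl2 and Angpt1 were read across the same hypoxia split. Angptl2 in fibroblasts went from 203 to 314 CPM and from 182 to 235 CPM (log2 ratios 0.63 and 0.37), and in cancer cells from 53.4 to 65.2 and from 59.8 to 62.4 CPM (0.29 and 0.06). Angpt1 in cancer cells went the other way, from 3.12 to 2.36 CPM (-0.40, -0.58 to -0.23) and from 2.92 to 2.37 CPM (-0.30, -0.49 to -0.11), but the thinned log2 ratios of 0.24 and -0.21 differed in sign.

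Between the libraries Angptl4 in ECs was higher in sGC ∆PC with a log2 ratio of 0.68 (0.36 to 1.01), and in fibroblasts the log2 ratio was -0.09 (-0.25 to 0.06). In ECs, 96.6% of the genes measured had a lower log2 ratio. Cells with a UMI were 39 of 67 (58.2%) and 39 of 72 (54.2%), and 7 of 64 (10.9%) and 11 of 62 (17.7%) after thinning, with overlapping intervals. The thinned log2 ratio of 1.05 rested on 7 and 14 UMIs (-0.36 to 2.60), and in the clusters named from the same markers it was -0.05 (-0.32 to 0.23). Fibroblasts had 2.01% of 8468 genes past 2-fold higher and 1.42% past 2-fold lower, with none of the 3 members measured there in either group. Macrophages had 0.89% of 11796 genes past 2-fold higher and 0.356% past 2-fold lower, again with none of the 3 members measured there.

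The genes around the receptors were read as a list of 12, the Tie pathway (Ptprb, Svep1, Foxo1, Dok2, Tnip2, Ptpn11, Shc1, Pik3r1, Akt1, Itga5, Itgb1 and Itgav). In ECs 9 were measured and none was past 2-fold, with a median log2 ratio of 0.10 beside 0.02 over all genes. Among them, Itgb1, an integrin chain that can bind angiopoietins, was at 821 and 911 CPM, Ptprb, the phosphatase VE-PTP that restrains TIE2, at 331 and 378 CPM, and Foxo1, the transcription factor held in check by TIE2 signalling and itself an activator of Angpt2, at 91.0 and 100.3 CPM. Pik3r1, a regulatory subunit of PI3-kinase, was at 83.8 and 49.3 CPM (log2 ratio -0.77, -1.23 to -0.32), and Itgav at 48.5 and 80.4 CPM (0.73, 0.29 to 1.17). Pericytes had 4 of the 12 measured, fibroblasts 11 and macrophages 10, with none past 2-fold. Cancer cells had all 12 measured and 1 past 2-fold higher, where 3.77% of all genes measured were past 2-fold higher. It was Svep1, an extracellular ligand of TIE1, with 25 and 99 UMIs there (0.0594 and 0.281 CPM, log2 ratio 2.24). Summed fibroblast markers in cancer cells were at 2.06% and 2.84% of their fibroblast level, and 3 of the 7 were past 2-fold higher. Their part in the Svep1 value was not tested. In fibroblasts, its main source, Svep1 was at 127 and 99.2 CPM (log2 ratio -0.36, -0.58 to -0.13), where fibroblast markers had a median log2 ratio of -0.38.

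Of the other family genes, Angptl1 was the fibroblast transcript that differed most. It had 99 and 35 UMIs in fibroblasts, for 36.3 and 11.6 CPM and a log2 ratio of -1.65 (-2.25 to -1.08), and 553 and 268 UMIs in cancer cells, or 1.31 and 0.761 CPM (-0.79). In fibroblasts Angptl1 was past 2-fold lower, as were 1.42% of all genes measured there, and fibroblast markers had a median log2 ratio of -0.38. Angptl8 was at 10.3 and 8.27 CPM in fibroblasts (-0.31, -1.15 to 0.52). In cancer cells Angptl7 was at 2.00 and 1.28 CPM (-0.64) and Angptl6 at 2.43 and 2.37 CPM (-0.04), neither past 2-fold. Angpt4, the remaining angiopoietin, had 8 and 14 UMIs in fibroblasts and 0 in ECs and pericytes of both libraries. In macrophages Angptl6 was at 3.97 and 3.50 CPM, and in ECs and pericytes none of these genes reached the minimum of 50 UMIs.

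The lipases and partners of angiopoietin-like proteins (Lpl, Lipg, Lipc, Lmf1, Gpihbp1, Pirb and Lilrb4a) were read in the same classes. Gpihbp1, the anchor that holds lipoprotein lipase on the capillary wall, had 3251 and 1834 UMIs in ECs (1792 and 1585 CPM, log2 ratio -0.18), where 2 of the 7 genes were measured and none was past 2-fold. Lpl, the lipase that ANGPTL4 inhibits, had 130 and 363 UMIs in fibroblasts, or 47.6 and 120 CPM (1.33, 1.04 to 1.64), and 2 and 3 in ECs. Fibroblasts had 4 measured and 3 past 2-fold higher, the others being Pirb (14 and 47 UMIs) and Lilrb4a (19 and 104 UMIs), receptor genes of myeloid cells. Of all genes measured in fibroblasts, 2.01% were past 2-fold higher. The summed macrophage markers in fibroblasts were at 477 and 780 CPM, or 3.24% and 6.36% of their macrophage level, 4 of the 8 measured being past 2-fold higher, and their part in these values was not tested. Macrophages had 5 measured and 1 past 2-fold lower (0.356% over all genes), the endothelial-type lipase gene Lipg with 85 and 10 UMIs (log2 ratio -2.92, -4.03 to -1.97), while Lpl was at 18.5 and 16.6 CPM (-0.16). In cancer cells, with 6 measured, 1 was past 2-fold higher (3.77% over all genes), Gpihbp1 with 317 and 702 UMIs (1.40), itself an EC transcript.

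The remaining lists set the state of the cells in which the members were found. The 9 hypoxia genes measured in ECs had a median log2 ratio of -0.09, and the one with the highest ratio, Adm, was at 197 and 315 CPM (0.68, 0.46 to 0.89). Car9 in fibroblasts had 49 and 10 UMIs (-2.44), the only one of 11 past 2-fold there. Of all genes measured in fibroblasts, 2.01% were past 2-fold higher and 1.42% past 2-fold lower. Fabp4, a lipid-binding protein gene and PPAR target, was past 2-fold lower in ECs, at 2632 and 1011 CPM (-1.38, -1.47 to -1.29), where Angptl4, another PPAR target, had a log2 ratio of 0.68. Past 2-fold lower in ECs were 0.794% of all genes measured. Fabp4 was the only 1 of the 4 listed PPAR targets measured in ECs that was past 2-fold. The median log2 ratio of these 4 was -0.12, beside 0.02 over all genes. In macrophages, where 7 resident-type genes were measured, 1 was past 2-fold higher and 1 past 2-fold lower, with a median log2 ratio of -0.43. Of all genes measured in macrophages, 0.89% were past 2-fold higher and 0.356% past 2-fold lower, with a median log2 ratio of -0.05.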

How the data were processed

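Per the labels and the study's methods, the authors processed 10x Genomics 3' libraries with Cell Ranger 6.1.1 against mm10 and deposited UMI counts per gene and barcode, the unit used here (unnormalized counts, all genes). In its single-cell data the study compared cells as replicates, which was not done here, since each group had 1 library. It reported Tek and Pdgfb mRNA as lower in sGC ∆PC ECs, which it took from annotated clusters. In the gated ECs used here the log2 ratios were -0.11 (-0.51 to 0.30) for Tek and 0.52 (0.35 to 0.69) for Pdgfb. After thinning they were 0.31 (-1.67 to 2.36) for Tek, on 5 and 6 UMIs, and 0.19 (-0.48 to 0.88) for Pdgfb. The mean over cells gave -0.35 for Tek and 0.18 for Pdgfb, and Tek was at -0.92 in the broader EC cluster. The study also stained TIE2 protein in ECs of tumor sections from several mice per genotype and reported it lower in sGC ∆PC. Protein was not measured in the data used here.

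The cell filter removed barcodes with 10% or more mitochondrial UMIs, and those whose UMI or gene number lay over 3 median absolute deviations from the library median (log scale). A cell passed a class gate when at least 3 markers were found and their summed level per 10000 UMIs was at least 25% of a reference, the 90th percentile among cells with at least 60% of the list. Cells passing several gates (119 and 479) were left out, which was the only treatment of doublets, and cells passing none (1936 and 5633) entered no class. Counts were summed per class and library and given as CPM, with exact Poisson intervals, exact (Clopper-Pearson) binomial intervals of shares, and exact conditional intervals of ratios. The share past 2-fold was taken over genes whose UMIs in a class came to 50 or more when the libraries were added, with a pseudocount of 0.5. A gene with no UMI was given a floor of 3 counts. Shares were also computed after thinning cells to 2000 UMIs. Splits by a gene list were made anew after thinning, at the median of the thinned counts. Their groups therefore need not hold the same cells as the unthinned splits. UMIs were treated as independent molecules.

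Named genes were the 6 members, the fixed lists with values for the highest sums and those past 2-fold, and the 3 genes most correlated with each member among those with at least 200 UMIs. The members, lists and markers were chosen with earlier results of these data known, and the gate's details after counts were seen. Some list results are not reported here. Other list genes given values were chosen after their values were seen. An alternative used Leiden clusters (3000 variable genes, 20 principal components, mutual nearest neighbours with k of 20, 15 neighbours, resolution 1). The ratio and thinning steps were tested on simulated data. Python 3.11.15, numpy 2.4.6, scipy 1.17.1, scanpy 1.11.5, leidenalg 0.10.2, scikit-learn 1.9.0 and pandas 2.3.3 were used.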

Additional observations from a re-analysis of the deposited data

Results flagged for a closer look

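Cells that passed no gate (1936 in sGC Ctr and 5633 in sGC ∆PC) entered none of the comparisons above, and 2 members had a signal there that was higher in sGC ∆PC than in the control library beyond counting error. Angptl2 had 403 and 941 UMIs, for 22.9 and 39.0 CPM and a log2 ratio of 0.77 (0.60 to 0.94). Angptl4 had 104 and 235 UMIs, or 5.90 and 9.75 CPM, a log2 ratio of 0.72 (0.39 to 1.07). The difference between genotypes could not be tested with 1 library each. In the same cells the summed cancer-cell markers were at 22.0% and 35.0% of their cancer-cell level, and their part in these values was not tested.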

How the results depend on the processing

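Each ratio was recomputed under 11 to 13 alternatives, and the gate, thinning and averaging mattered most. Leiden clusters gave log2 ratios of -0.0074 for Angpt2, -0.92 for Tek, -0.96 for Tie1 and -0.047 for Angptl4 in ECs and -0.72 for Angptl4 in fibroblasts. The signs of Angpt2 and Angptl4 in ECs were reversed, and there was no pericyte cluster. The fibroblast cluster held 177 and 924 cells, of which 14 and 307 passed the cancer-cell gate and 33 and 171 several gates. The part of these cells in the fibroblast value was not tested. Thinning to 2000 UMIs gave 0.18 for Angpt2, 0.31 for Tek and 1.05 for Angptl4 in ECs, -0.0106 for Angptl2 in pericytes and -0.34 for Angptl4 in fibroblasts. The mean over cells gave 0.36 for Angpt2 and -0.59 for Tie1 in ECs, -0.35 for Angptl4 in fibroblasts and -0.0031 for Angptl2 in cancer cells (sign reversed). A gate at 12.5% of the reference gave 0.19 for Angptl4 in fibroblasts. Alternatives added after seeing the data (cells with at least 5000 UMIs, the highest cell left out, shared barcodes left out, ECs low in cancer-cell markers) were also run. Of these, the mean over cells with at least 5000 UMIs gave 0.67 for Angpt2 in ECs and -0.0072 for Angptl2 in cancer cells (sign reversed). The cause was not tested. Angpt1 in fibroblasts stayed between -1.66 and -0.49 in all 12. With a minimum of 20 UMIs, genes past 2-fold higher and lower were 2.17% and 2.17% in ECs, 3.53% and 3.60% in pericytes, 3.41% and 2.41% in fibroblasts and 1.82% and 0.76% in macrophages, and 0.38% were lower in cancer cells. No paired analysis was possible because each group had 1 library, and for the same reason no library could be left out. Depth limits the thinned values of Tek and Angptl4 in ECs, which rest on 5 to 14 UMIs.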

Other observations

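A Leiden cluster led by Dcn and Lum, known as fibroblast genes, and H19 (992 and 586 cells), whose marker levels were 53.4% of the cancer-cell reference and 8.59% of the fibroblast reference, held 252 and 160 Angpt1 UMIs, or 6.18 CPM (5.44 to 6.99) and 5.91 CPM (5.03 to 6.90), above the 2.71 and 2.65 CPM of all gated cancer cells. Angptl4 was at 25.2 CPM (23.6 to 26.9) and 22.3 CPM (20.8 to 24.0) in a cluster of 654 and 1151 cells led by Mt2, Mt1, Adm, Ero1l and Ndrg1, against 11.95 and 13.2 CPM in all gated cancer cells. These clusters were formed from all variable genes and the values are descriptions.

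Among the 2787 and 3133 barcodes that the cell filter removed, Tie1 had 76 and 64 UMIs (6.67 and 2.63 CPM) and Angpt2 had 144 and 170 (12.6 and 7.00 CPM), log2 ratios of -1.34 (-1.84 to -0.84) and -0.85 (-1.18 to -0.52). Cells that passed several gates held 12 and 27 Tie1 UMIs and 287 and 227 Angptl4 UMIs.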
